A study of Mus musculus with 6 samples.

Results

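The amino acid transporter genes of the solute carrier families 1, 3, 6, 7, 36, 38 and 43 were examined in mouse neutrophil progenitors. Members were chosen by symbol alone, as every probe set of the array whose annotated symbol is one of these family names followed by a number alone. Slc6a20a and Slc6a20b, whose symbols end in a letter, are therefore not among them. The rule gave 59 probe sets, 1 for each of 59 genes, of 22206 on the array. Total RNA had been hybridised to 6 Affymetrix Mouse Clariom S arrays. The cells were HoxB8 progenitors, which the transcription factor Hoxb8 holds immature, after 1 day in a differentiation medium that contained fetal calf serum, β-mercaptoethanol and stem cell factor supernatant. In both groups the cells expressed a form of C/EBPα, the transcription factor that drives granulocyte formation: 3 arrays came from cells with the wild-type form (WT) and 3 from cells with the leukaemia-associated K313 form (K313). The labels do not state how each form was introduced, whether a line was 1 clone, or whether the replicates of a group are separate cultures, so a p-value here reflects the variation among these 6 arrays and part of it could be technical.

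Amino acid transporters are membrane proteins that move amino acids across the plasma membrane or out of lysosomes, by exchange, by coupling to sodium or protons, or down a gradient. The SLC7 light chains reach the cell surface only when bound to a heavy chain of the SLC3 family. Several of these genes are known targets of ATF4, the factor that responds to amino acid shortage, and leucine and arginine taken up or released from lysosomes are sensed by the growth kinase complex mTORC1. The SLC6 family also holds carriers of serotonin, dopamine, GABA, taurine and creatine, so not every gene chosen by symbol carries an amino acid used for protein synthesis.

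Levels are log2 expression values of the deposited table and a change is the K313 mean minus the WT mean of those values, with the standard error of a limma fit over all 22206 probe sets. A gene was called at a Benjamini-Hochberg adjusted p under 0.05 over all probe sets. Every count within a family or list is to be read beside the shares of all probe sets. These were 7.75% called, 17.8% with an unadjusted p under 0.05 and 21.9% without overlap between the groups. Across all probe sets, arrays of different groups correlated at 0.983 to 0.989 and arrays within a group at 0.994 to 0.996. WT replicate 3 lay nearest to K313, at 0.987 to 0.989. Of 16 measured neutrophil precursor markers 8 were higher and 1 lower in K313 (56% called, against 7.75% of all probe sets). The summed marker level was 18.78 to 18.87 in WT and 19.28 to 19.35 in K313. The primary granule gene Mpo read 18.41 in WT and 18.42 in K313, while Elane rose from 11.63 to 14.91 (3.29 ± 0.28, limma adjusted p = 1.94e-05). The late granule genes Ltf and Camp stayed under 4 on every array. Other markers of the list did not, as Mmp8 rose by 6.99 ± 0.43 and Lcn2 by 2.09 ± 0.23. The groups also differed in Hoxb8 (-4.64 ± 0.25) and in the Y-linked Eif2s3y (7.88 ± 0.83), so the part of the C/EBPα form cannot be told apart from that of these differences. In such bulk samples fewer cells of a type and less RNA per cell cannot be told apart either.

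Few amino acid transporter genes were called, and a gene that was not called may still differ by less than this design detects. Of the 59, 2 rose in K313 and 4 fell, and 53 were not called. Over all probe sets 3.77% rose and 3.97% fell, 7.75% together, beside 10.2% of the transporters. The median change was 0.04 for the transporters and 0.02 for all probe sets. At an unadjusted p under 0.05 there were 16 transporters, 7 higher and 9 lower (27.1%, against 17.8% of all probe sets). The groups did not overlap in 19 transporters (32.2%, against 21.9% of all probe sets). K313 lay above WT in 8 of them and below in 11, where all probe sets gave 11% and 10.9%.

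Many members had a low signal. In 32 of the 59 both group means were at most 5, a range in which a level cannot be told from background without detection calls, against 47.9% of all probe sets. Of these 32, 1 was called. Of the 27 genes with a mean above 5 in at least 1 group, 1 rose and 4 fell (18.5%, against 13.9% of all probe sets above that level). The groups did not overlap in 13 of these 27, with K313 above in 4 and below in 9 (48.1%, against 31.0%). Among the 15 members in the top 25% by mean, 1 rose and 1 fell (13.3%, against 9.85% of all probe sets in that range). The groups did not overlap in 8 of these 15 (53.3%, against 28.9%). The genes called lower were Slc6a4, Slc7a7, Slc43a1 and Slc6a9, and those called higher were Slc36a1 and Slc6a5.

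**Figure D1:**
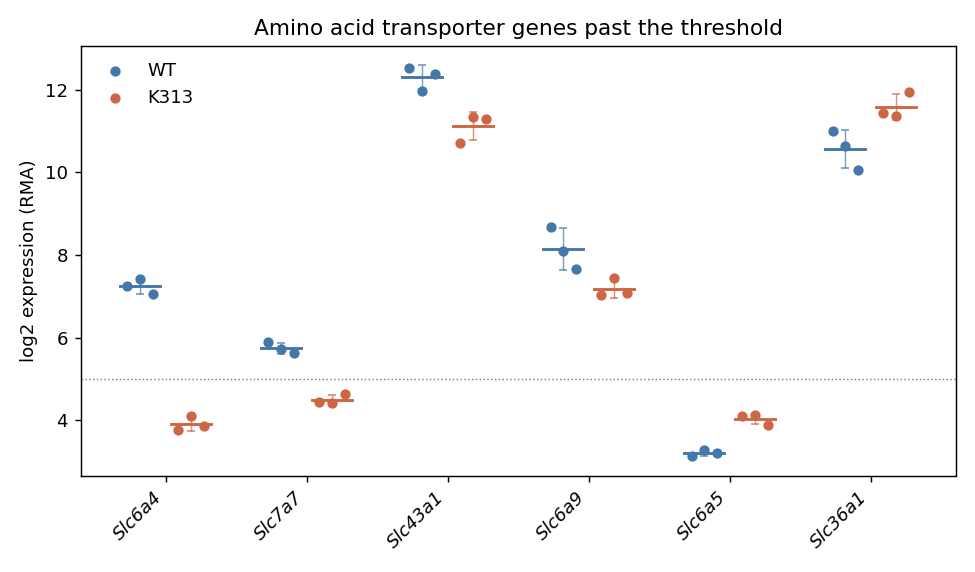
Log2 expression (vertical axis) of the 6 called amino acid transporter genes on each of 3 WT and 3 K313 arrays; points are arrays, horizontal bars are group means, error bars are SD, and the dotted line marks the level of 5. The WT and K313 arrays do not overlap in any of the 6 genes, and Slc6a5 lies under 5 in both groups.

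**Figure D2:**
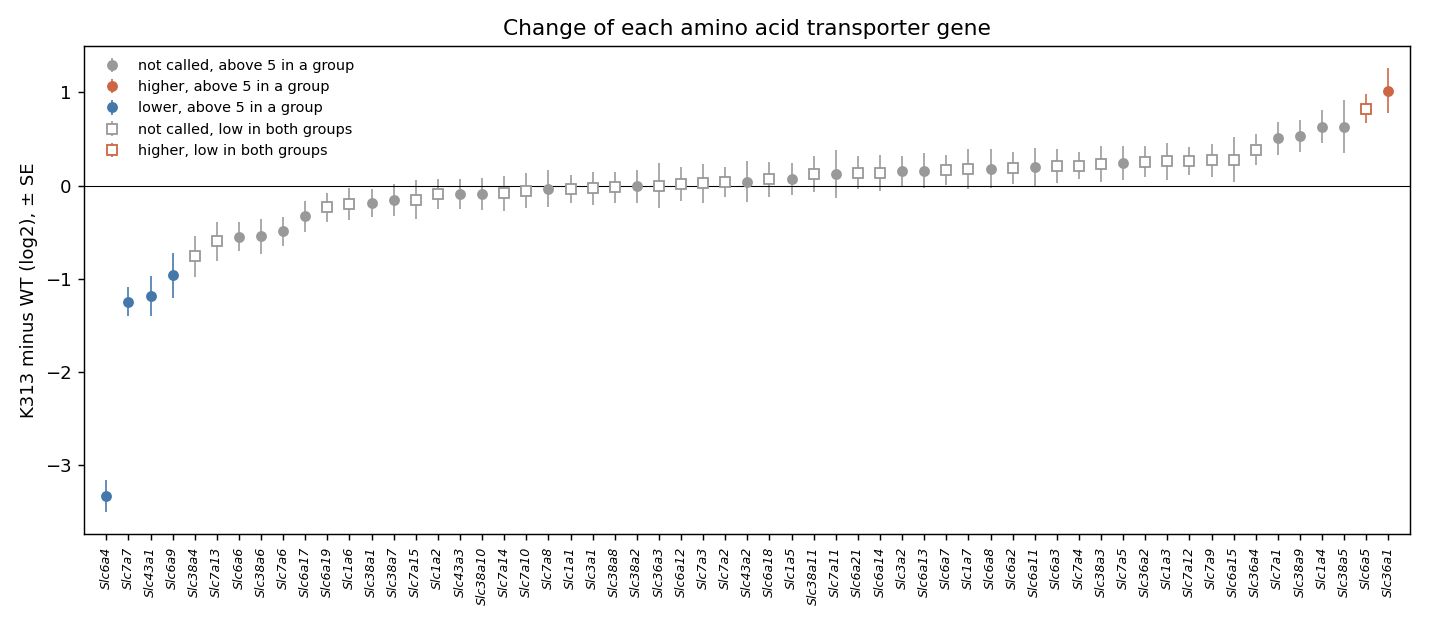
Change K313 minus WT (log2, vertical axis) of each of the 59 genes in order of size, with its SE; blue is called lower, orange called higher, grey not called, and open squares are genes low in both groups. Slc6a4 stands apart at -3.33, and 53 genes are grey.

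Among the SLC6 carriers of monoamines, GABA, taurine and creatine, 1 of 8 was called. Slc6a4, the serotonin transporter, read 7.25, 7.42 and 7.05 in WT and 3.78, 4.10 and 3.86 in K313. All WT arrays lay above all K313 arrays, by 2.95 or more. The change was -3.33 ± 0.17 (SE, n = 3 per group; limma adjusted p = 9.38e-07), a fall of 10.0-fold that is a compressed estimate because the K313 level is near background. Serotonin transport is known in mast cells and basophils. Of 12 measured marker genes of those cells, 5 fell and 1 rose (50% called, against 7.75% of all probe sets). Their summed log2 level was 18.33 to 18.44 in WT and 17.64 to 17.89 in K313. Most of the sum came from Cpa3, at 17.24 in WT and 16.83 in K313 and not called, and from Hdc, at 16.74 and 16.00. Cd200r3 changed by -4.03 ± 0.23 and Gata2 by -1.47 ± 0.19. The mast cell and basophil proteases Cma1 and Mcpt8 changed by -3.29 ± 0.33 and -1.63 ± 0.22, and Prss34 rose by 3.98 ± 0.21. Kit (-0.62 ± 0.22) and Ms4a2 (0.17 ± 0.27) were not called, and Fcer1a and Tpsab1 stayed under 4 in every array. The part of these cells in the Slc6a4 result was not tested.

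Slc6a6, the taurine transporter, read 12.13, 12.14 and 11.94 in WT and 11.39, 11.51 and 11.66 in K313. The groups did not overlap, but the change of -0.55 ± 0.16 missed the threshold (adjusted p = 0.0590; 95% interval -0.89 to -0.21 before adjustment). It passed when each array was shifted to a common median (adjusted p = 0.0282). The creatine carrier Slc6a8 and the GABA carriers Slc6a11 and Slc6a13, chosen after their values were seen, differed by 0.18 ± 0.20, 0.20 ± 0.21 and 0.16 ± 0.19. The dopamine and noradrenaline carriers Slc6a3 and Slc6a2, also chosen afterwards, were low in both groups.

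Of the SLC6 carriers of glycine, proline and other neutral amino acids, 1 of 8 fell and 1 rose. Slc6a9 (GlyT1), which supplies glycine to many cells including red cell precursors, read 8.68, 8.09 and 7.67 in WT and 7.03, 7.45 and 7.07 in K313. Every WT array was above every K313 array, with WT replicate 3 only 0.22 above K313 replicate 2, the highest of its group. The change was -0.96 ± 0.24 (adjusted p = 0.0332). The call ended on removal of WT replicate 1 (adjusted p = 0.0932) or 2 (0.0708) or of K313 replicate 1 (0.115) or 3 (0.127), with array weights (0.0544) and with ordinary variance (0.299). Slc6a5 (GlyT2), the glycine carrier of inhibitory neurons, read 3.13, 3.29 and 3.22 in WT and 4.10, 4.12 and 3.90 in K313. Its change was 0.83 ± 0.15 (adjusted p = 0.00543) at levels near background in both groups, so it does not show that the gene is expressed. The other 6 measured members of this group were not called, and 5 of them were low in both groups. Slc6a21, a member of the family placed in neither group, was low in both and not called.

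Erythroid markers are given beside Slc6a9. Of 8 measured, 2 rose and 0 fell with limma (25% called, against 7.75% of all probe sets), and 3 were low in both groups. The summed log2 level was 13.63 to 14.01 in WT and 14.26 to 14.80 in K313. Alas2, the erythroid enzyme that joins glycine to succinyl-CoA for heme, lay at 4.64 in WT and 4.66 in K313, near background. Alas1, the form found in all cells, lay at 14.59 and 14.57. Almost all of the sum came from the transferrin receptor Tfrc, which dividing cells of many kinds express, at 13.58 to 13.98 in WT and 14.21 to 14.78 in K313. The 2 called markers were Tfrc (0.72 ± 0.19, limma adjusted p = 0.0458) and Slc4a1 (0.81 ± 0.17, 0.0114), both with the sign opposite to Slc6a9. The Tfrc call held in 2 of the 6 fits on 5 arrays. It was also lost with a common median (adjusted p = 0.0895), array weights (0.0532), ordinary variance (0.248) and the replicate block (0.0866). The Slc4a1 call was lost without K313 replicate 2 (0.0613) and with ordinary variance (0.103). Rhag (0.87 ± 0.24, 0.0555) and Ermap (0.68 ± 0.31, 0.289) were also higher and not called. Klf1 (-0.47 ± 0.21, adjusted p = 0.263), Epor (-0.43 ± 0.19, 0.255) and Car1 (-0.48 ± 0.34) had the sign of Slc6a9 and were not called. The part of such cells in the Slc6a9 result was not tested.

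RefSeq promoters (build GRCm38.p6, 250 bases before to 50 after each start) were at hand for 42 of the 59 genes, with 63 starts in all. They were searched on both strands for TTGCNNAA, a C/EBP site, and for TGATGNAA, the composite element bound by C/EBP and ATF factors, since C/EBPα is what differs by design. The C/EBP letters were in 9 of 63 member promoters (14.3%) and in 10.8% of all 32851 promoters. The composite letters were in 5 of 63 (7.94%) and in 3.97% of all. By gene this was 4 of 42 members and 1219 of 27025 genes, as a Slc7a7 site lies in the overlapping windows of different starts and was counted in each. A match is a description of letters and not of binding. One of the 3 annotated starts of Slc6a9 has a C/EBP match, shown in capitals within chr4:117849130-117849189, plus strand:
Slc6a9: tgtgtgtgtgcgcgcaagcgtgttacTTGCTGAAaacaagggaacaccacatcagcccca

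Among the subunits of the heteromeric exchangers, neither heavy chain was called. Slc3a2 (CD98), the partner of most light chains, read 15.98, 15.74 and 15.92 in WT and 15.83, 16.07 and 16.20 in K313. The groups overlapped, and the difference of 0.15 ± 0.16 had a 95% interval of -0.21 to 0.51 (adjusted p = 0.726). The other heavy chain, Slc3a1, the partner of the kidney cystine exchanger, was low in both groups, at 4.26 and 4.23 (a difference of -0.03 ± 0.18).

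Of 10 light chains 1 fell, 0 rose with limma and 9 were not called; at an unadjusted p under 0.05, 3 were lower and 0 higher. Slc7a7 (y+LAT1), which exports arginine and lysine in exchange for neutral amino acids, read 5.89, 5.72 and 5.63 in WT and 4.45, 4.43 and 4.63 in K313. The groups were apart by 1.00 log2 units or more. Its change of -1.24 ± 0.16 (adjusted p = 0.000346) ends near background and is a compressed estimate. Slc7a7 is known from macrophages. Of 11 measured monocyte and macrophage markers 5 rose and 2 fell (63.6% called, against 7.75% of all probe sets). Their summed log2 level was 12.58 to 12.995 in WT and 14.84 to 15.19 in K313. The sum was carried by genes such as F13a1 (2.95 ± 0.26), Ms4a6c (4.32 ± 0.32) and Ly6c2. Cd14 (4.45 ± 0.32) and Ccr2 (0.87 ± 0.23) were also called higher. In all, 7 of the 11 markers had a change above 0, and the other 4 had the sign of Slc7a7. Cx3cr1 fell (-2.04 ± 0.21, adjusted p = 9.06e-05; 0.0570 with ordinary variance). Adgre1, the macrophage antigen F4/80, also fell (-0.78 ± 0.19, adjusted p = 0.0270), a call that ended on removal of WT replicate 2 (0.0698) or 3 (0.106) or of K313 replicate 2 (0.107) or 3 (0.116) and with ordinary variance (0.199). Csf1r (-0.41 ± 0.29, adjusted p = 0.552) and Mrc1 (-0.27 ± 0.34, 0.772) were not called, and Mrc1 was low in both groups. Lymphocyte markers fell in 4 of 10 and rose in 0 with limma (40% called, against 7.75% of all probe sets). At an unadjusted p under 0.05, also 4 were lower and 0 higher. Their summed log2 level was 10.08 to 10.66 in WT and 8.21 to 8.29 in K313. The B cell receptor component Cd79b changed by -3.93 ± 0.24 and the recombinase subunit Rag2 by -1.64 ± 0.17, while 6 of the 10 were low in both groups. The part of any of these cells in the Slc7a7 or Slc6a4 results was not tested.

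Slc7a7 has 5 annotated starts, and 3 different matches lie before them. They are shown because Slc7a7 was the 1 called member with both kinds of letters. The first is a C/EBP match in chr14:54410292-54410321, and the others are composite matches in chr14:54417927-54417952 and chr14:54418067-54418096, all on the minus strand with the matched letters in capitals:
Slc7a7 C/EBP: gacccagagggTTGCTTAAcgctcctctcc
Slc7a7 composite, first: tagaagcTGATGCAAcagcttccccg
Slc7a7 composite, second: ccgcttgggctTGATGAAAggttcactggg

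The leucine and glutamine exchanger Slc7a5 (LAT1), the main route of large neutral amino acids in dividing cells, read 14.39, 14.21 and 14.42 in WT and 14.33, 14.52 and 14.90 in K313. The groups overlapped, with a difference of 0.24 ± 0.18 (adjusted p = 0.571; 95% interval -0.15 to 0.64). Slc7a8 (LAT2), a related exchanger, read 14.04, 13.95 and 14.28 in WT and 14.31, 13.64 and 14.22 in K313, again overlapping (-0.03 ± 0.20). Slc7a6 (y+LAT2), the close relative of Slc7a7 in the same exchange of arginine for neutral amino acids, read 12.63, 12.61 and 12.82 in WT and 12.12, 12.32 and 12.15 in K313. Its groups did not overlap, and the change of -0.49 ± 0.15 missed the threshold (adjusted p = 0.0909). Its sign was that of Slc7a7.

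The cystine and glutamate exchanger Slc7a11 (xCT), a known ATF4 target that feeds glutathione synthesis, was chosen after its values were seen. It read 9.44, 8.30 and 9.06 in WT and 8.97, 9.24 and 8.96 in K313. The groups overlapped and the difference was 0.12 ± 0.26 (adjusted p = 0.877; 95% interval -0.44 to 0.69). Its promoter holds a pair of composite matches, on opposite strands, shown in capitals within chr3:50443646-50443705, minus strand, as an uncalled gene with such letters:
Slc7a11: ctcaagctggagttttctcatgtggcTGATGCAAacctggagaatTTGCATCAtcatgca

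Of 5 cationic amino acid transporters, which carry arginine and lysine without a heavy chain, 0 were called with limma (1 had an unadjusted p under 0.05) and 4 were low in both groups. Slc7a1 (CAT1), the general arginine carrier, read 10.61, 11.07 and 10.98 in WT and 11.21, 11.45 and 11.52 in K313. The K313 arrays were all higher, yet the difference of 0.51 ± 0.18 missed the threshold (adjusted p = 0.134; 95% interval 0.12 to 0.90 before adjustment).

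No SLC1 gene passed with limma (0 of 7; 1 had an unadjusted p under 0.05), and 5 were low in both groups. Slc1a5 (ASCT2), the sodium-dependent glutamine exchanger, read 12.15, 12.39 and 12.59 in WT and 12.30, 12.52 and 12.53 in K313. The groups overlapped, and the difference was 0.07 ± 0.17 (adjusted p = 0.893; 95% interval -0.30 to 0.45); it was -0.0033 with each array shifted to a common median. Slc1a4 (ASCT1), which exchanges serine, alanine and cysteine and was chosen after its values were seen, read 4.73, 4.59 and 4.50 in WT and 5.23, 5.54 and 4.95 in K313. Its K313 arrays were all higher (0.63 ± 0.18, adjusted p = 0.0615). It passed the threshold with array weights (0.0367) and without K313 replicate 3 (0.0388).

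The SLC38 genes encode sodium-coupled carriers of glutamine, alanine and other small neutral amino acids, and 0 of 11 passed with limma. At an unadjusted p under 0.05 there were 4, 2 higher and 2 lower (36.4%, against 17.8% of all probe sets). Slc38a1 (SNAT1) read 15.24, 15.25 and 15.35 in WT and 15.19, 14.97 and 15.12 in K313, without overlap but with a difference of only -0.19 ± 0.15 (adjusted p = 0.614). Slc38a2 (SNAT2), which is induced when amino acids are short, read 14.95, 15.14 and 15.47 in WT and 15.33, 15.10 and 15.11 in K313. Its groups overlapped, and the difference of -0.0067 ± 0.18 had a 95% interval of -0.40 to 0.38 and turned to 0.0114 with quantile normalization. Slc38a10, a less studied member, differed by -0.09 ± 0.17.

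Slc38a6 read 10.16, 10.22 and 10.66 in WT and 9.94, 9.56 and 9.91 in K313, without overlap but short of the threshold (-0.54 ± 0.19, adjusted p = 0.131). Slc38a5 (SNAT5), a glutamine and glycine carrier of red cell precursors chosen after its values were seen, read 6.04, 6.72 and 6.53 in WT and 6.38, 7.46 and 7.35 in K313. K313 replicate 1 fell among the WT arrays. The difference was 0.63 ± 0.28 (adjusted p = 0.269), and 0.98 without that array (adjusted p = 0.0310). Slc38a4, also chosen afterwards and low in both groups, differed by -0.76 ± 0.22 (adjusted p = 0.0604). It passed in 5 of the 8 processing alternatives (lowest adjusted p 0.0301) and without K313 replicate 3 (0.0120).

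**Figure D3:**
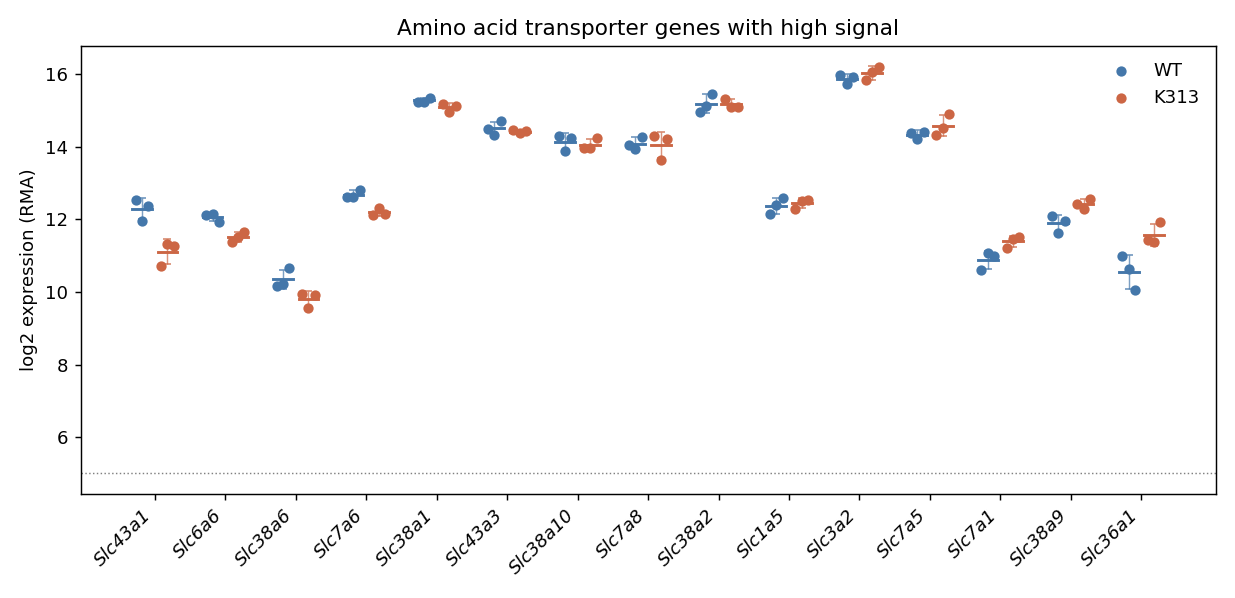
Log2 expression (vertical axis) on each array of the 15 members whose mean lies in the top 25% of all probe sets, in order of their change; points are arrays, bars are group means, error bars are SD, and the dotted line marks the level of 5. Slc43a1 at the left and Slc36a1 at the right are the called genes, and Slc3a2, Slc7a5, Slc38a2 and Slc1a5 overlap between the groups.

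Members known to act at the lysosome include Slc36a1, Slc38a9 and Slc38a7. Slc36a1 (PAT1) moves small neutral amino acids out with protons. It read 10.99, 10.64 and 10.06 in WT and 11.44, 11.37 and 11.93 in K313, so that the highest WT array was 0.38 below the lowest K313 array. The change was 1.02 ± 0.24 (adjusted p = 0.0256). The call ended on removal of WT replicate 2 (adjusted p = 0.0544) or 3 (0.0849) or of K313 replicate 1 (0.0548) or 3 (0.117) and with ordinary variance (0.279). Slc38a9, the arginine sensor of the lysosome that activates mTORC1, read 12.10, 11.63 and 11.95 in WT and 12.43, 12.29 and 12.56 in K313. All K313 arrays were higher, but the difference of 0.53 ± 0.17 missed the threshold (adjusted p = 0.103; 95% interval 0.15 to 0.91 before adjustment). Slc38a7, a lysosomal glutamine carrier chosen after its values were seen, overlapped between the groups (-0.16 ± 0.17). The other 3 SLC36 genes were low in both groups and not called.

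The single annotated start of Slc36a1 has a C/EBP match whose first base lies at -218 from the start, read on the opposite strand and shown in capitals within the 250 bases before the start, chr11:55204090-55204339, plus strand:
Slc36a1: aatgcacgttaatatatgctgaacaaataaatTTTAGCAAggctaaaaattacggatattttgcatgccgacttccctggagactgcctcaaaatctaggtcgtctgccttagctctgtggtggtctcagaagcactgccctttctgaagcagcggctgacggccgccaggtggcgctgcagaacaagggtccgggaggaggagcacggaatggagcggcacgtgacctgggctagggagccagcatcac

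Of the 3 SLC43 genes 1 fell. Slc43a1 (LAT3), which carries leucine and other large neutral amino acids without exchange, read 12.53, 11.97 and 12.38 in WT and 10.72, 11.33 and 11.28 in K313. The groups were apart by 0.64 or more, and the change was -1.18 ± 0.21 (adjusted p = 0.00458), a fall of 2.27-fold. It stayed called in all 6 fits on 5 arrays and was lost with ordinary variance (0.147). Slc43a3, a purine base carrier, read 14.48, 14.33 and 14.71 in WT and 14.46, 14.37 and 14.43 in K313, overlapping (-0.09 ± 0.16). Slc43a2 (LAT4), chosen after its values were seen, differed by 0.04 ± 0.22.

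A further list held 12 amino acid transporters that the symbol rule left out, namely Slc6a20a, Slc6a20b and members of other families. Of the 12, 1 rose and 1 fell (16.7% called, against 7.75% of all probe sets). The SLC6 genes Slc6a20a and Slc6a20b, chosen after their values were seen, differed by 0.40 ± 0.15 (adjusted p = 0.162) and 0.24 ± 0.18. Slc66a1 (PQLC2), which exports arginine and lysine from lysosomes, read 8.38, 8.43 and 7.97 in WT and 7.46, 7.18 and 7.55 in K313 (-0.86 ± 0.18, adjusted p = 0.0124). Its call was lost without K313 replicate 2 (adjusted p = 0.0666) and with ordinary variance (0.143). Slc32a1, the vesicular carrier of GABA and glycine, changed by 0.98 ± 0.19 (adjusted p = 0.00880) from a WT mean of 4.38, near background; it was lost with ordinary variance (0.152).

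Genes of the amino acid response went both ways. Of 26 probe sets for 25 genes, 1 rose and 3 fell (15.4%, against 7.75% of all probe sets), with a median change of 0.27 against 0.02. At an unadjusted p under 0.05 the balance was the other way, with 8 higher and 4 lower (46.2%, against 17.8% of all probe sets). K313 lay above WT without overlap in 9 probe sets and below in 4 (50% together, against 21.9% of all probe sets). All probe sets gave 11% above and 10.9% below. Atf4 itself read 14.30 in WT and 14.54 in K313 (0.24 ± 0.17, adjusted p = 0.543). Impact, an inhibitor of the amino acid sensing kinase GCN2, changed by -1.15 ± 0.19 (adjusted p = 0.00243), lost with ordinary variance (0.0995). Ddit4, an mTORC1 inhibitor, changed by -0.94 ± 0.23 (adjusted p = 0.0283) and ended on removal of WT replicate 1 (0.0687) or 3 (0.106) or of K313 replicate 1 (0.110) or 3 (0.115) and with ordinary variance (0.273). Asparagine synthetase, Asns, read 14.52, 13.73 and 14.35 in WT and 14.93, 14.98 and 15.11 in K313. Its change of 0.81 ± 0.21 (adjusted p = 0.0366) passed in 1 of the 6 fits on 5 arrays. The others gave 0.0880 and 0.0617 on removal of WT replicates 2 and 3, and 0.0804, 0.106 and 0.134 on removal of K313 replicates 1, 2 and 3. It was also lost with a common median (0.0638) and ordinary variance (0.262). The third fall was 1 of the probe sets of Ddit3, the stress factor CHOP (-0.99 ± 0.24, adjusted p = 0.0292). It ended on removal of WT replicate 1 (0.0853) or 2 (0.0941) or of K313 replicate 1 (0.0707) or 2 (0.0517), with quantile normalization (0.0527) and with ordinary variance (0.289).

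Enzymes that make or use the carried amino acids are given by list, beside 7.75% of all probe sets called. The serine, glycine and one-carbon list had 5.88% called, the glutamine list 16.7% and the arginine list 8.33%. Of 17 serine, glycine and one-carbon genes 1 rose: Shmt1, which interconverts serine and glycine, changed by 0.67 ± 0.18 (adjusted p = 0.0444) and passed in 1 of the 6 fits on 5 arrays. The others gave 0.145 and 0.123 on removal of WT replicates 1 and 2, and 0.140, 0.136 and 0.0814 on removal of K313 replicates 1, 2 and 3. It was also lost with a common median (0.0850), array weights (0.0558) and ordinary variance (0.205). Of 12 glutamine, glutamate and glutathione genes 2 rose, Asns and the aspartate aminotransferase Got1. Got1 read 10.15, 9.38 and 9.80 in WT and 10.91, 11.43 and 11.01 in K313 (1.34 ± 0.22, adjusted p = 0.00248), and was lost with ordinary variance (0.134). Of 12 arginine and polyamine genes 1 fell: spermine synthase, Sms, changed by -0.62 ± 0.15 (adjusted p = 0.0310) and passed in 0 of the 6 limma fits on 5 arrays (0.0503 to 0.134); it was also lost with ordinary variance (0.0819).

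Of 36 genes of mTORC1 amino acid sensing 1 rose (2.78% called, against 7.75% of all probe sets), with a median change of 0.00. Rragb, 1 of the Rag GTPases that bring mTORC1 to the lysosome, read 5.76, 5.28 and 6.18 in WT and 8.07, 8.01 and 8.64 in K313. The groups were apart by 1.83, and the change was 2.50 ± 0.25 (adjusted p = 5.38e-05; 0.0587 with ordinary variance). Its close relative Rraga, chosen after its values were seen, differed by 0.07 ± 0.17.

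**Figure D4:**
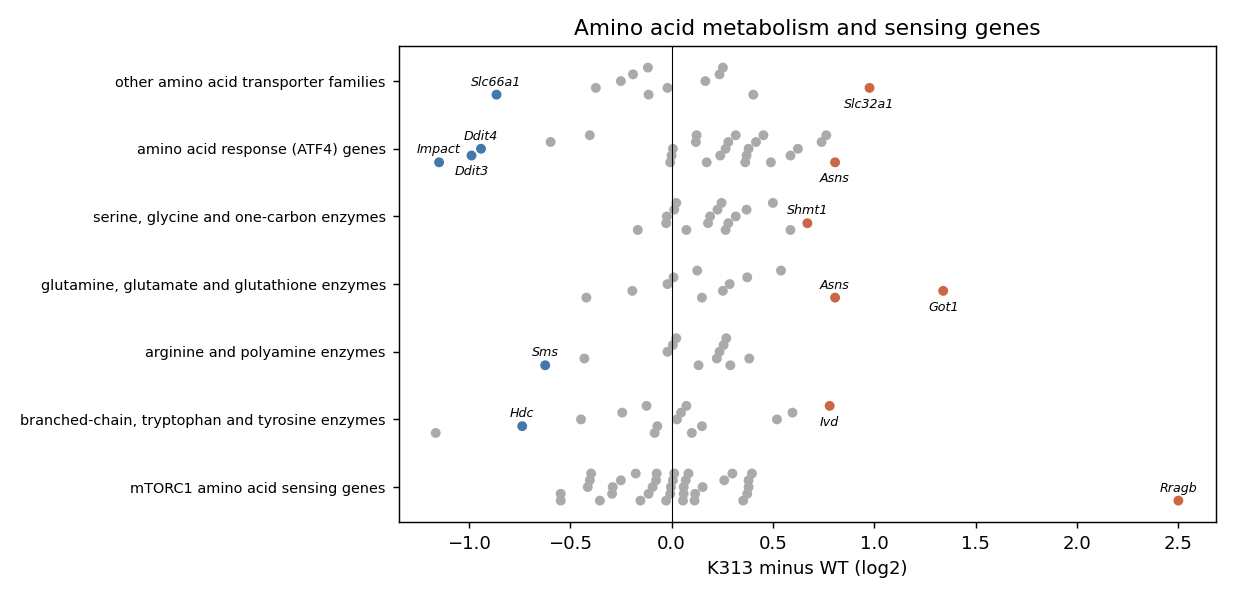
Change K313 minus WT (log2, horizontal axis) of each probe set in 7 lists of amino acid metabolism and sensing genes (rows; points are spread vertically for display); orange is called higher, blue called lower and grey not called. Most points are grey and lie between -0.5 and 0.8, and Rragb stands apart at 2.50.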

How the data were processed

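Per the submitters' processing notes, the authors made the deposited log2 values with RMA and the Transcriptome Analysis Console; the sources used here give no version. RMA normalizes across arrays, so a shift in total RNA per cell would be largely removed, and it compresses folds at low signal. The deposited log2 values run from 2.21 to 18.59, with array medians of 5.01 to 5.13, so the arrays are close to a common distribution but not identical in it. Probe sets were named from the platform annotation: 19572 have 1 symbol, 0 several and 2634 none. The 2634 stayed in the tests. With arrays, precision is limited by their number, 3 per group (median SE of a change 0.18).

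All 22206 probe sets were fitted with limma 3.58.1 in R 4.3.3 (lmFit with group as the only term, eBayes, two-sided), with Benjamini-Hochberg adjustment over all of them. For this comparison the fit was tested on simulated data with independent normal noise, in which 200 of 22206 probe sets were changed, 50 per size. It recovered 10% of changes of 0.5 and 84% of changes of 1 on the log2 scale. In the data 1720 probe sets were called, so the adjustment differs and these shares are not the recovery of the real fit.

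Members, gene lists and tests were chosen with earlier results of these data known. The genes named were the called members, members in the top 25% of probe sets by mean, the heavy chains, Slc6a9 and, of each other list, up to 6 called genes with the smallest p; the marker lists are given by counts and by a few members. Alternatives were quantile normalization, a common array median, dropping the dimmest 30% of probe sets, an intensity trend with robust prior, array weights, ordinary variance per gene, 1-symbol probe sets, a replicate block and leaving out each array.

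Promoter sequences are RefSeq's, build GRCm38.p6. The genome build behind the array is not stated in these sources.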

Additional observations from a re-analysis of the deposited data

How the results depend on the processing

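Counts of called members moved by over 1.5 times in some settings. With removal of the lowest 30% of probe sets, ordinary variance or the replicate block, 1 transporter was higher in place of 2. Removal of WT replicate 2 or of WT replicate 3 also left 1 higher. With ordinary variance 2 were lower in place of 4, and with a common median 6. Leaving out an array gave 1 to 2 higher and 3 to 4 lower, but not always the same genes. Without K313 replicate 1 or 3, 2 were higher and 1 of them was shared with the full fit. Slc36a1 was lost in both, and Slc38a5 passed without replicate 1 and Slc1a4 without replicate 3. Without K313 replicate 3, 3 of the 4 lower genes were shared, with Slc38a4 passing and Slc6a9 lost. Over all probe sets ordinary variance gave 247 higher and 249 lower, in place of 838 and 882, and leaving out an array gave 625 to 760 higher and 575 to 776 lower, the lowest without K313 replicate 2. Slc6a4 and Slc7a7 stayed called in all 14 alternatives, and Slc6a5 in all 13 that tested it (it was below the low-signal filter).

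The labels do not say whether same-numbered arrays share a batch or culture. Deviations of same-numbered arrays from their group means correlated at -0.06, 0.03 and -0.06, which cannot settle whether they were paired. With the replicate block, 777 probe sets were higher and 769 lower. In that fit Slc36a1 (adjusted p = 0.0513), Ddit4 (0.0529), Shmt1 (0.0851), Sms (0.0563), Ivd (0.0741), Adgre1 (0.0629) and Tfrc (0.0866) missed the threshold. WT replicate 3 correlated best with K313 replicate 1 (0.14).

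Changes near 0 turned sign. Slc38a2 was 0.0114 with quantile normalization and Slc1a5 was -0.0033 with a common median. When an array was left out, Slc38a2 ranged from -0.125 to 0.135, Slc1a5 from -0.04 to 0.18, Slc7a8 from -0.16 to 0.175, Slc3a1 from -0.137 to 0.118 and Slc43a3 from -0.175 to 0.015. The cause of these differences was not tested.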

Other observations

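Enzymes of branched-chain amino acids, tryptophan, tyrosine and histidine were measured by 15 probe sets. Of these 1 rose and 1 fell (13.3% called, against 7.75% of all probe sets). Histidine decarboxylase, Hdc, which makes histamine in basophils and mast cells, read 16.72, 16.61 and 16.88 in WT and 16.25, 15.86 and 15.89 in K313. The groups did not overlap, and the change was -0.74 ± 0.17 (limma adjusted p = 0.0206); it passed in 2 of the 6 fits on 5 arrays (0.0532 and 0.0832 on removal of WT replicates 1 and 3, 0.0984 and 0.0848 on removal of K313 replicates 2 and 3) and was lost with ordinary variance (0.129). Ivd, an enzyme of leucine breakdown, changed by 0.78 ± 0.20 (adjusted p = 0.0359) and passed in 2 of those 6 fits (0.123 and 0.109 on removal of WT replicates 1 and 2, 0.134 and 0.106 on removal of K313 replicates 1 and 2). It was also lost with a common median (0.0684) and with ordinary variance (0.245). Bcat1, the cytosolic enzyme that starts the breakdown of leucine and was chosen after its values were seen, read 10.27, 8.92 and 9.48 in WT and 7.63, 8.71 and 8.84 in K313. Its groups did not overlap, and the change of -1.16 ± 0.36 missed the threshold (adjusted p = 0.0887).

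Several of the transporter genes are neighbours in the RefSeq gene order. Slc36a1, Slc36a2 and Slc36a3 follow each other on chromosome 11, and changed by 1.02, 0.26 and 0.00, with the last pair low in both groups. Slc43a1 and Slc43a3 lie on chromosome 2 with 1 protein-coding gene between them, and differed by -1.18 and -0.09. Slc38a1, Slc38a2 and Slc38a4 follow each other on chromosome 15, and differed by -0.19, -0.0067 and -0.76. In each of these groups at most 1 gene was called, and the differences between neighbours were not tested.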
